A study of Mus musculus with 4 samples.

Results

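The genes described here are the 7 cyclin-dependent kinase (CDK) inhibitor genes of the mouse and the 3 genes of the retinoblastoma family, measured in 32D-EpoR cells with and without erythropoietin (Epo), the hormone that drives red cell formation. The inhibitors were Cdkn1a, Cdkn1b and Cdkn1c of the CIP/KIP family and Cdkn2a, Cdkn2b, Cdkn2c and Cdkn2d of the INK4 family, and the retinoblastoma genes were Rb1, Rbl1 and Rbl2. They were taken by gene name, with every probe that the array design gives that name and whatever the signal. This gave 34 spots per array and 16 probes for 10 genes, of 59305 gene spots, 55681 probes and 36413 gene names on each array. 32D is an interleukin-3-dependent myeloid progenitor line of the mouse, and 32D-EpoR is, by its name, a derivative with an introduced Epo receptor. Both groups carried the receptor and both were washed out of the WEHI medium that normally maintains them, so the samples without Epo had neither growth factor source. One group then received Epo at 10 U/ml (2 samples), and the other received none (2 samples). How long Epo was present and whether the line is a single clone are not given in the sources used here.

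CDK inhibitors restrain the kinases that carry a cell from G1 into S phase. The CIP/KIP proteins p21 (Cdkn1a), p27 (Cdkn1b) and p57 (Cdkn1c) bind cyclin and CDK together, while the INK4 proteins p16 (Cdkn2a), p15 (Cdkn2b), p18 (Cdkn2c) and p19 (Cdkn2d) bind the cyclin D partners CDK4 and CDK6. Active CDKs phosphorylate RB (Rb1), p107 (Rbl1) and p130 (Rbl2), the pocket proteins that hold E2F transcription factors at the promoters of replication genes. In blood progenitors, p27 and p130 are typical of resting cells, and p107 is itself an E2F target that is made by cycling cells.

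For Cdkn1a and Cdkn1b, several probes were bright enough to be tested and they read different stretches of the gene, so the last 30 bases of each of these probes (60 bases long, 5′ to 3′) are shown to tell them apart. Positions are on the mouse build mm9, as the array files give them. What the annotation of that build places at each position (exon, intron or untranslated region) was not analysed here. Capitals mark the ATG triplet near the end of the third Cdkn1a probe, and the ATG triplets of the Cdkn1b stretches are left in lower case.
Cdkn1a, listed for NM_007669 and NM_001111099, chr17:29237377-29237436, plus strand: gctgatcctttctcagtgttgaataccgtg
Cdkn1a, listed for NM_001111099 without NM_007669, chr17:29227986-29228045, plus strand: acgtcccactttgccagcagaataaaaggt
Cdkn1a, listed for ENSMUST00000122348, chr17:29235299-29235358, plus strand: tcttgtgtttcagccacaggcaccATGtcc
Cdkn1b, listed for NM_009875 and ENSMUST00000067327, chr6:134875424-134875483, plus strand: ataatttttgtaatgtgtgaaaaagatgcc
Cdkn1b, listed for ENSMUST00000067327 without NM_009875, chr6:134873606-134873665, plus strand: aaagcactcgtgcagatatgctgcatatga

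Values are log2 signals after each array was scaled to its 75th percentile, which lay at 347 and 454 intensity units with Epo and at 224 and 250 without Epo. A change is the mean with Epo minus the mean without Epo, so a negative change is lower with Epo. A gene or probe was called when its adjusted p from limma was under 0.05, with adjustment over the 23735 probes that the scanner software marked as well above background on each array of one group or of both. With 2 arrays per group the median standard error (SE) of a log2 change was 0.15. Levels of different probes are not set against each other, since probes differ in how brightly they bind. Arrays correlated at 0.995 within the group with Epo, at 0.992 within the group without Epo and at 0.969 to 0.974 between groups, across probes. Of 14 haematopoietic and myeloid progenitor markers 13 were well above background in at least 1 group, and Kit was not well above background on any array. The erythroid marker Alas2, 7 of 9 lymphoid markers, the macrophage markers Mrc1 and C1qa and the stromal markers Dcn and Lum were not well above background on any array. Summed marker signals, in scaled intensity units, differed between the groups. For progenitor markers the sums were 207240 and 214680 with Epo and 240952 and 240940 without Epo. For the 4 erythroid markers well above background on every array (Klf1, Hba-a1, Epb4.2 and Gata1) they were 8104 and 8298 with Epo and 11583 and 13244 without Epo, and limma called Gata1 lower, with a change of -0.68 ± 0.13 (adjusted p = 0.0258). For lymphoid markers they were 697 and 726 with Epo and 1446 and 1230 without Epo. For macrophage markers they were 4505 and 4817 with Epo and 3701 and 3618 without Epo, and for stromal markers 337 and 226 with Epo and 428 and 446 without Epo. All sums but the erythroid one also hold markers that were not well above background. Limma also called the lymphoid markers Cd3e (change -1.14) and Cd4 (-0.81), the macrophage marker Csf1r (-0.79) and the stromal marker Pdgfrb (-2.45) lower. It called the macrophage marker Emr1 higher (1.03), and 0 of the 13 tested progenitor markers either way. The part of these markers in the results was not tested, and fewer cells of a type and less RNA per cell cannot be told apart in these bulk samples.

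The genes of p27, p18, p19, p107 and p130 had a lower signal with Epo, by 1.62-fold for p107 to 3.22-fold for p18, and the genes of p21 and RB were not called by their brightest probes. Of the 7 genes bright enough to be tested, limma called 5 lower with Epo (Cdkn1b, Cdkn2c, Cdkn2d, Rbl1 and Rbl2) and 0 higher, with Cdkn1a higher at an unadjusted p under 0.05. Across all 17569 genes tested, 25.9% were called, 13.4% lower and 12.5% higher. The median change of the 7 genes was -0.72, against -0.062 over all genes tested. By probe, 1 of the 11 tested probes was called higher and 6 lower, where 25.9% of all probes were called, 13% higher and 12.9% lower. The arrays of the 2 groups did not overlap for 9 of the 11 probes, 2 above and 7 below, and the same was true of 68.3% of all probes tested. The other 5 probes, the single probe of Cdkn1c and both probes each of Cdkn2a and Cdkn2b, were not well above background on any of the 4 arrays. Of the 11 tested probes, 10 were well above background on all 4 arrays, and 1 Cdkn1b probe passed the filter through the arrays without Epo alone. The calls do depend on the filter, since with no filter on dim probes limma called 0 of 55672 probes.

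**Figure D1:**
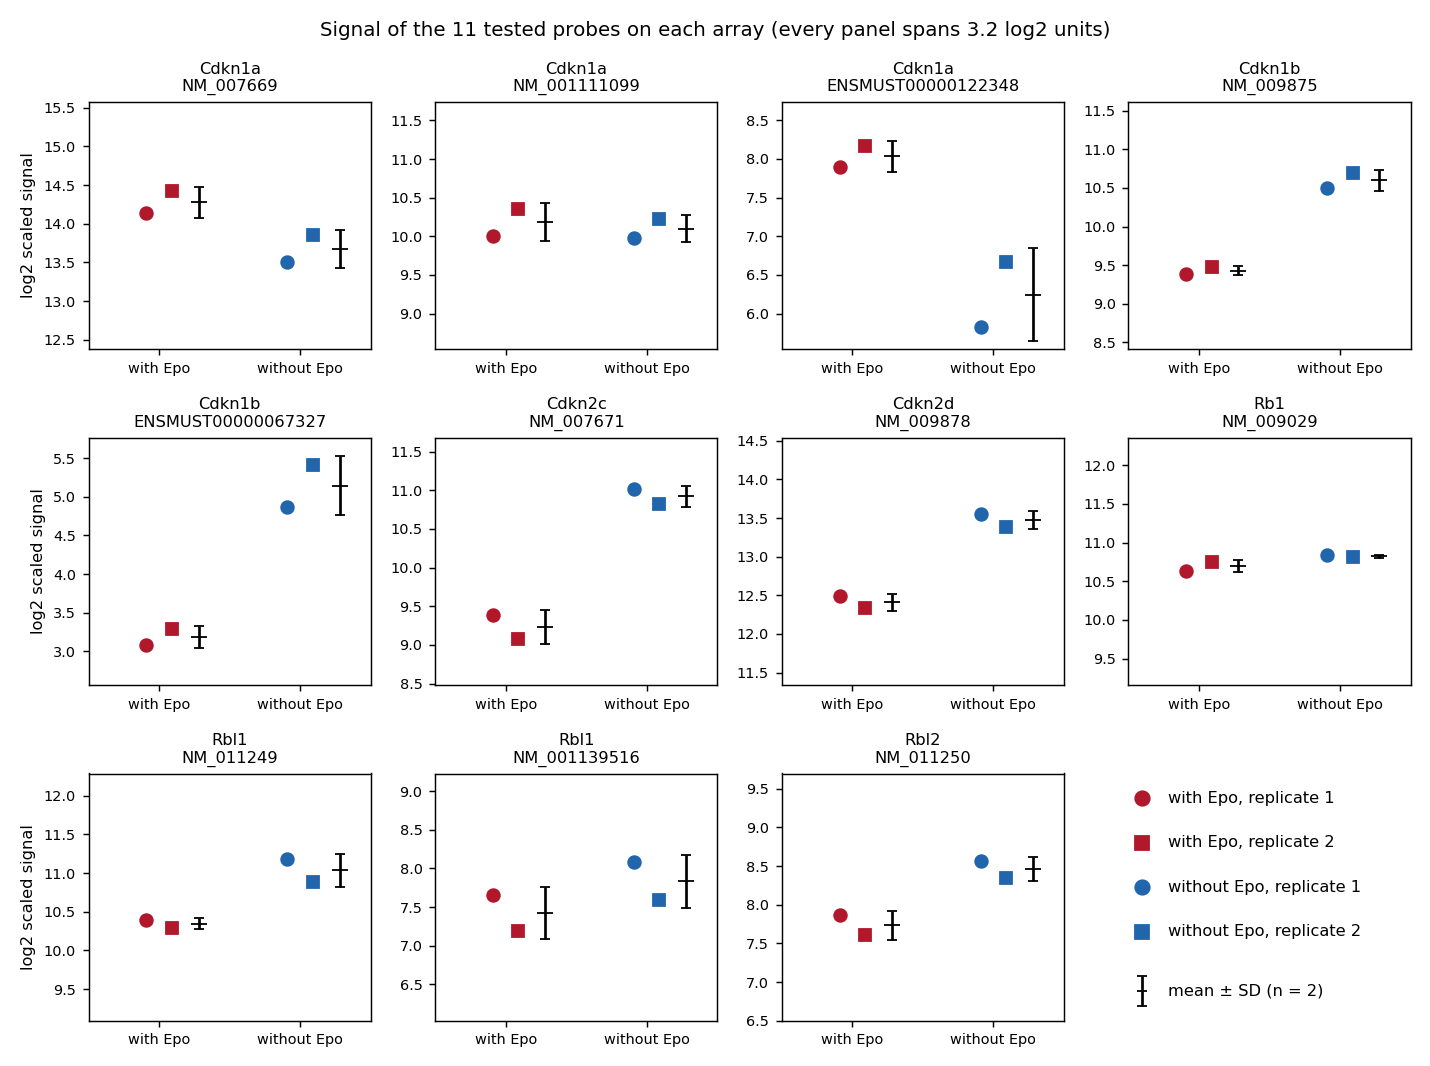
Log2 scaled signal of the 11 tested probes, one panel per probe, with 2 arrays with Epo on the left, 2 without Epo on the right, and the mean ± SD (n = 2) beside them. Every panel spans the same range of log2 units around its own level. The Cdkn1b, Cdkn2c, Cdkn2d, Rb1 and Rbl2 panels and the NM_011249 panel of Rbl1 show both arrays with Epo below both arrays without Epo. Of these, Rb1 was not called.

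Among the CIP/KIP genes, Cdkn1b was called lower with Epo, 1 of 3 Cdkn1a probes was called higher, and Cdkn1c was not detected. Cdkn1a encodes p21, an inhibitor of CDK2 complexes and a classical p53 target that growth factor signals also induce. The probe shared by its RefSeq transcripts, which stands on each array as 10 spots, read 14.14 and 14.42 with Epo, against 13.50 and 13.85 without Epo. Both arrays with Epo lay above both without Epo, although the second array of each group was the higher one. The means were 14.28 ± 0.20 with Epo and 13.68 ± 0.25 without Epo (SD, n = 2 each), a change of 0.60 ± 0.19 (SE), or 1.52-fold higher. Within each array the SD between the 10 spots was 0.0455 to 0.0978, which is technical noise within a sample and smaller than the spread between the arrays of a group. This change did not pass the test (limma adjusted p = 0.0787). It did pass in the fit with the experiment as a block, at an adjusted p of 0.0218.

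The other Cdkn1a probes gave a different picture from each other. The probe listed for NM_001111099 without NM_007669 read 10.01 and 10.36 with Epo, against 9.98 and 10.22 without Epo. The groups overlapped, and the change was 0.085 ± 0.18 (limma adjusted p = 0.753, 95% interval -0.39 to 0.56). The probe listed for ENSMUST00000122348, whose end holds the marked ATG, read 7.89 and 8.17 with Epo, against 5.82 and 6.67 without Epo. Both arrays with Epo were above both arrays without Epo, and the arrays without Epo were the more spread. With another background correction (normexp) its rise was smaller, at 1.08. As processed here the probe rose by 1.79 ± 0.32, or 3.45-fold, with means of 8.03 ± 0.20 with Epo and 6.25 ± 0.60 without Epo (SD, n = 2 each; limma adjusted p = 0.0219, 95% interval 0.95 to 2.62). It was the only probe of the 10 genes called higher, and the call was lost without the second array with Epo, at an adjusted p of 0.0539.

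Whether the probes of a gene responded unequally was tested on the difference between 2 probes on each array, over 9158 probe pairs of 4380 genes, of which 1.61% were called. Of the 5 pairs within these genes 0 were called and 4 had an unadjusted p under 0.05, as did 16.5% of all pairs. All pairs of Cdkn1a probes are among the 4, and since they share probes they are not independent. One of the 4 is the Cdkn1b pair, of which 1 probe was not well above background with Epo. The difference of that pair in this fit is therefore not given, and its place among the 4 lends no support. For Cdkn1a the difference of changes, NM_001111099 probe minus ENSMUST00000122348 probe, was -1.70 ± 0.25 (limma adjusted p = 0.0637). With another background correction (normexp) that difference was -0.97 and was called, at an adjusted p of 0.0168. The change of the shared RefSeq probe minus that of the NM_001111099 probe was 0.52 ± 0.14 (adjusted p = 0.185), and minus that of the ENSMUST00000122348 probe it was -1.19 ± 0.22 (adjusted p = 0.0947), both by limma. These differences between Cdkn1a probes were thus larger than their spread between arrays but did not pass the adjusted test.

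Cdkn1b encodes p27, which accumulates in blood cells deprived of growth factors and binds cyclin E and CDK2. Its NM_009875 probe read 9.39 and 9.47 with Epo, against 10.50 and 10.69 without Epo. The groups were far apart for their spread. The means were 9.43 ± 0.06 with Epo and 10.60 ± 0.14 without Epo (SD, n = 2 each), and the signal fell by 1.17 ± 0.13 on the log2 scale, or 2.24-fold (limma adjusted p = 0.0095, 95% interval -1.52 to -0.81). Within the first experiment the change was -1.11 and within the second it was -1.22. The probe listed for ENSMUST00000067327 read 3.09 and 3.29 with Epo, against 4.87 and 5.41 without Epo, and with Epo it was well above background on 0 of 2 arrays. Its level with Epo is therefore only an upper limit, and it was at least 2.64-fold lower with Epo (limma adjusted p = 0.00937). Since it entered the test only through the arrays without Epo, where it is high, it had to differ, and its p and its place among the 6 probes called lower lend no support. The bound sets the mean without Epo against the mean, over the arrays with Epo, of the dimmest signal well above background, or of the probe's own signal where that was higher.

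Cdkn1c encodes p57, an imprinted inhibitor known from quiescent blood stem cells. Its probe (NM_009876, chr7:150644753-150644812, minus strand) read 4.25 and 2.61 scaled intensity units with Epo, against 5.91 and 6.08 without Epo. All of these lie below the dimmest signal that was well above background on the same array, which was 18.4 and 9.44 units with Epo and 24.6 and 24.4 units without Epo. No difference between the groups was detectable for Cdkn1c at this signal.

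In the INK4 family, the p18 and p19 genes fell with Epo and the p16 and p15 genes were not detected. Cdkn2c encodes p18, which limits CDK6 and the cycling of blood progenitors. Its probe (NM_007671, chr4:109333508-109333567, minus strand) read 9.39 and 9.08 with Epo, against 11.02 and 10.83 without Epo. The gap between the groups was several times the spread within them. The means were 9.24 ± 0.22 with Epo and 10.92 ± 0.14 without Epo (SD, n = 2 each), and it fell by 1.69 ± 0.17, or 3.22-fold (limma adjusted p = 0.00765, 95% interval -2.13 to -1.25). Of the single-probe genes here it had the largest change, and it stayed called in 12 of 13 alternative settings. Those 12 include the fit with no scaling between arrays, where the change was -0.94.

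Cdkn2d encodes p19, the INK4 protein whose level rises and falls within the cell cycle in mouse cells. Its probe (NM_009878, chr9:21092934-21092993, minus strand) read 12.49 and 12.33 with Epo, against 13.55 and 13.39 without Epo. The arrays within each group lay close together. The means were 12.41 ± 0.11 with Epo and 13.47 ± 0.12 without Epo (SD, n = 2 each), and the signal fell by 1.06 ± 0.14, or 2.09-fold (limma adjusted p = 0.0115, 95% interval -1.42 to -0.70). The change was -1.07 in the first experiment and -1.06 in the second. Without the second array with Epo, the adjusted p was 0.0501.

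Cdkn2a, which encodes p16 and, in another reading frame, the p53 activator ARF, and its neighbour Cdkn2b, which encodes the TGF-beta-induced p15, stood at background. Both Cdkn2a probes (chr4:88920543-88920602 and chr4:88920405-88920464, minus strand) are listed for NM_009877 and for NM_001040654, so they do not part the p16 and ARF transcripts. The Cdkn2b probes lie at chr4:88952720-88952779 and chr4:88952276-88952335 on the same strand, both listed for NM_007670. Together with Cdkn1c these 5 probes read, on the log2 scale, 1.95 to 2.19 on the first array with Epo and 1.17 to 1.48 on the second, against 2.38 to 2.65 and 2.33 to 3.88 on the arrays without Epo. Their signals were under the dimmest signal well above background on each array, so no fold change is given for these genes. The dimmest signal well above background was also lower on the scaled arrays with Epo. Its part in the lower readings of these probes was not tested.

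In the retinoblastoma family, Rbl1 and Rbl2 were called lower with Epo and Rb1 was not called. Rb1 encodes RB, which binds the activating E2F factors. Its probe (NM_009029, chr14:73595408-73595467, minus strand), another one present as 10 spots per array, read 10.64 and 10.75 with Epo, against 10.83 and 10.81 without Epo. The means were 10.69 ± 0.08 with Epo and 10.82 ± 0.02 without Epo (SD, n = 2 each). The arrays with Epo were the lower ones, but the change was small, at -0.13 ± 0.12 (limma adjusted p = 0.464). Its 95% interval was -0.45 to 0.19, and whether Rb1 differed in its change from Rbl1, Rbl2 or the CDK inhibitor genes was not tested.

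Rbl1 encodes p107, which pairs with the repressive E2F factors in cycling cells. Its NM_011249 probe read 10.39 and 10.29 with Epo, against 11.18 and 10.89 without Epo, with no overlap between the groups. The means were 10.34 ± 0.07 with Epo and 11.03 ± 0.21 without Epo (SD, n = 2 each), and it fell by 0.69 ± 0.15, or 1.62-fold (limma adjusted p = 0.0372). The call was lost without the first array with Epo (adjusted p = 0.115), without the second array with Epo (0.146) and without the first array without Epo (0.0944). The probe listed for NM_001139516 (chr2:157000761-157000820, minus strand) read 7.66 and 7.19 with Epo, against 8.08 and 7.59 without Epo, and here the groups overlapped. Its change was -0.41 ± 0.25 (limma adjusted p = 0.280), and it passed in the fit with the experiment as a block, at an adjusted p of 0.0358, where the changes within experiments were -0.42 and -0.40. When both Rbl1 probes were averaged before the fit, the change was -0.55 and was not called, at an adjusted p of 0.0985. The difference of changes between the Rbl1 probes was -0.28 ± 0.19 (limma adjusted p = 0.577, 95% interval -0.81 to 0.24).

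Rbl2 encodes p130, the pocket protein of the DREAM complex, which represses cell cycle genes in resting cells. Its probe (NM_011250, chr8:93647120-93647179, plus strand) read 7.87 and 7.60 with Epo, against 8.57 and 8.35 without Epo. Both arrays with Epo were lower, and the change was alike within the experiments, at -0.70 and -0.75. The means were 7.73 ± 0.19 with Epo and 8.46 ± 0.16 without Epo (SD, n = 2 each), and it fell by 0.72 ± 0.16, or 1.65-fold (limma adjusted p = 0.0368, 95% interval -1.15 to -0.30). The call was lost when any 1 of the 4 arrays was left out, with adjusted p between 0.0561 and 0.154.

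**Figure D2:**
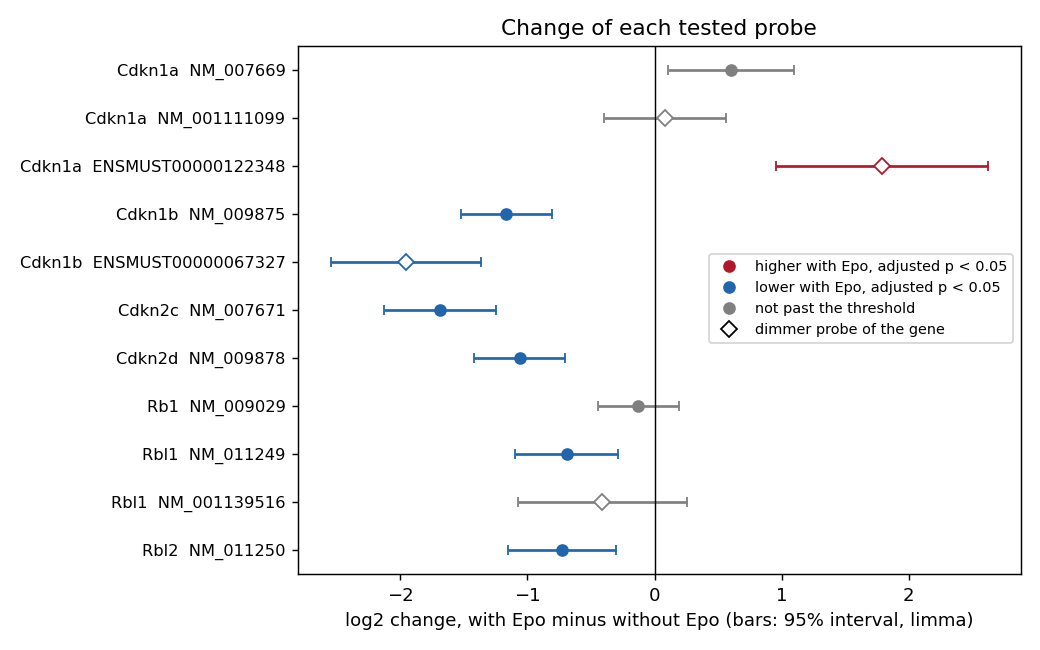
Change of each tested probe on the log2 scale, with Epo minus without Epo, with its 95% interval from limma (n = 2 per group). Filled circles are each gene's brightest probe and diamonds its dimmer probes, red and blue mark probes called higher and lower, and grey marks probes that were not called. The intervals of Cdkn1b, Cdkn2c, Cdkn2d, Rbl2 and the NM_011249 probe of Rbl1 lie left of 0, and that of Rb1 spans 0.

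How the arrays were scaled set part of these values. Raw signals were brighter with Epo, so that without any scaling the median change of all probes was 0.71, against -0.040 as scaled here. Without scaling, Cdkn1b and Cdkn2d kept their direction but were not called, at -0.42 (adjusted p = 0.265) and -0.31 (adjusted p = 0.405). The NM_011249 probe of Rbl1 and Rbl2 turned to 0.054 and 0.021, and Rb1 to 0.62, none of them called. Relative to the median of all probes, the changes without scaling and with the percentile over detected probes equal those given here by construction, since such scaling shifts all probes of an array alike. Only the normexp and quantile settings can move them. Over the 4 other scaling and background settings, the change of Cdkn2c relative to that median was -1.75 to -1.45. That of Cdkn1b was -1.23 to -0.94 and that of Cdkn2d -1.13 to -0.84. It was -0.77 to -0.54 for Rbl1, -0.70 to -0.48 for Rbl2, -0.20 to 0.057 for Rb1 and 0.57 to 0.79 for Cdkn1a. With no filter on dim probes, limma called 0 of 55672 probes, with 9494 at an unadjusted p under 0.05, 8 of them probes of these genes.

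**Figure D3:**
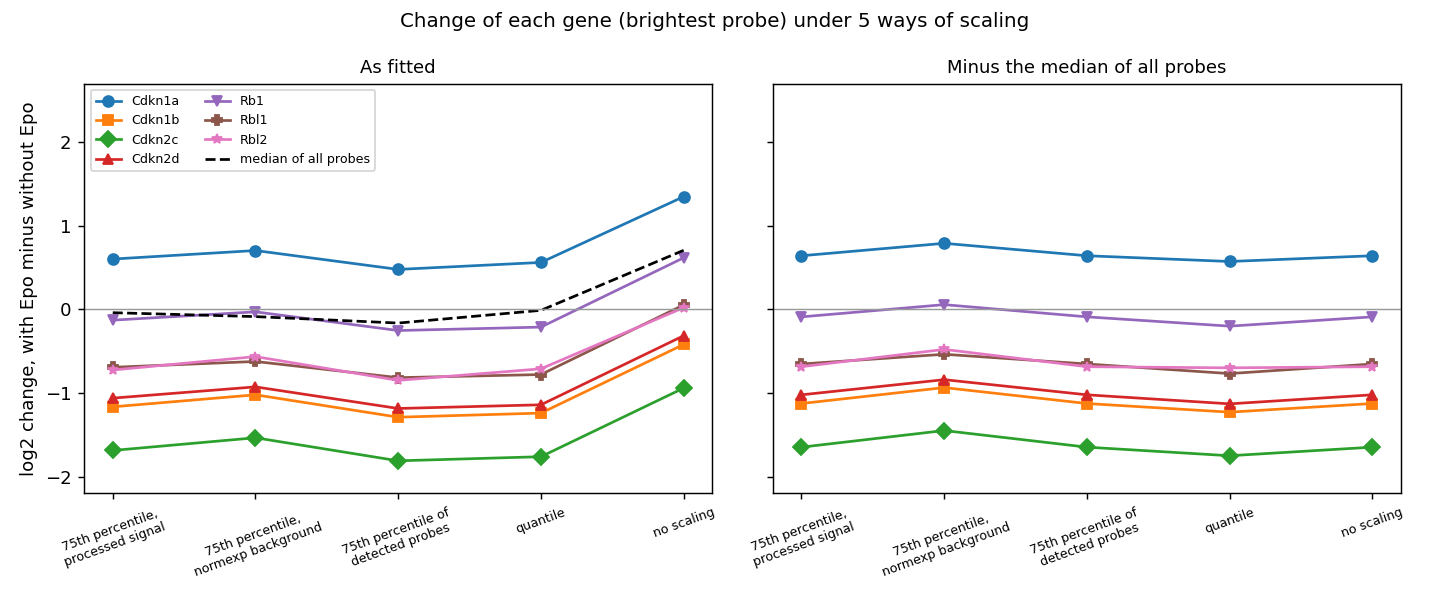
Change of each tested gene (brightest probe) with Epo minus without Epo under 5 ways of scaling or background correction, as fitted on the left and after subtracting the median of all probes on the right. The dashed line is that median, which moves to 0.71 without scaling. On the right, the percentile over detected probes and no scaling match the first setting by construction. Cdkn1a lies above 0 and Cdkn2c lowest in each setting, while Rbl1 and Rbl2 exchange places with normexp and quantile.

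Among the partners on which these proteins act, some genes were called higher and some lower. Across all genes tested, 12.5% were called higher and 13.4% lower, and these shares stand beside every list count below. Of 14 G1 cyclins, CDKs and CDK activators, 13 were tested and limma called 3 higher and 1 lower, with a median change of -0.039. Cdk7, the CDK-activating kinase, rose by 1.41 ± 0.19 (adjusted p = 0.0127), and Cdc25a, the phosphatase that frees CDK2 from inhibitory phosphate, by 1.04 ± 0.12 (adjusted p = 0.0091). Ccne1, the cyclin E that p21 and p27 restrain, fell by 0.63 ± 0.12 (adjusted p = 0.026), and its change was 0.12 without scaling.

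Of 17 E2F, DP and MuvB partners of the pocket proteins, all were tested and 2 were called higher and 3 lower, with a median change of -0.18. The activating factors E2f2 and E2f1, which RB binds, both fell, E2f2 with a change of -1.99 ± 0.12 (adjusted p = 0.0047) and E2f1 with a change of -1.21 ± 0.14 (adjusted p = 0.00922). E2f5, a partner of p107 and p130, rose by 1.27 ± 0.15 (adjusted p = 0.00996), a call that was lost with the normexp background, and the repressor E2f6 rose by 0.73 ± 0.12 (adjusted p = 0.0197).

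Replication genes that E2F factors control lay mostly lower with Epo, and the part of the pocket proteins in this was not tested. Of 20 such genes 11 were called lower and 0 higher, where 13.4% of all genes tested were called lower and 12.5% higher. In this list 1 gene was higher at an unadjusted p under 0.05 by limma, and the median change was -0.63. The thymidine kinase gene Tk1 fell by 1.28 ± 0.13 (adjusted p = 0.00816), and the origin licensing factor Cdt1 fell by 1.23 ± 0.11 (adjusted p = 0.00711). Without scaling, 2 of the 20 were called, both higher, with a median of 0.11.

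Regulators that stand above the inhibitors were called in both directions, where 12.5% of all genes tested were called higher and 13.4% lower. A list of 12 genes held ubiquitin ligase subunits that act on CDK inhibitors and 1 kinase gene, Uhmk1. Limma called Uhmk1 higher, no ligase subunit higher and 1 ligase subunit lower, with a median change of 0.0086 over the 12. Dtl, the substrate receptor that targets p21 and Cdt1 for degradation, fell by 1.59 ± 0.13 (adjusted p = 0.00612). Uhmk1, a kinase that phosphorylates p27, rose by 0.62 ± 0.12 (adjusted p = 0.0289), and its direction was reversed with the normexp background. Of 18 tested p53 genes and targets (20 listed), 1 was called higher and 5 lower, with a median of -0.25. The exonuclease gene Aen rose by 1.30 ± 0.13 (adjusted p = 0.00775), while Trp53inp1 fell by 1.46 ± 0.13 (adjusted p = 0.00667) and the pro-apoptotic Bbc3 fell by 1.32 ± 0.18 (adjusted p = 0.0135). Cdkn1a, itself a p53 target, had changes of 0.085 to 1.79 over its probes, and whether it differed from the other targets was not tested.

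FOXO factors raise p27, p130 and other arrest genes when growth factor signals stop. Of 12 genes in this list 8 were tested, since Foxo1, Foxo3, Foxo4 and Klf2 were too dim, and limma called 1 higher and 5 lower, with a median change of -1.15. Ccng2, an unconventional cyclin of arrested cells, fell by 3.11 ± 0.17 (adjusted p = 0.00455), and Bcl6, a transcriptional repressor, fell by 2.66 ± 0.15 (adjusted p = 0.00456). The stress sensor Gadd45b rose by 1.62 ± 0.15 (adjusted p = 0.0071). The 5 called lower were Ccng2, Bcl6, Bcl2l11, Pik3ip1 and Sesn3. Whether FOXO factors had a part in the changes of Cdkn1b and Rbl2 was not tested.

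Polycomb proteins keep the Cdkn2a and Cdkn2b locus silent in many cycling cells. Of 15 tested genes in a list of Polycomb and other regulators of this locus (19 listed), limma called 2 higher and 4 lower, with a median change of 0.13. Id1, which inhibits the activation of p16 by ETS factors, rose by 1.95 ± 0.24 (adjusted p = 0.0103), and the H3K27 demethylase Kdm6b rose by 1.70 ± 0.11 (adjusted p = 0.00531). The Polycomb subunits Cbx2 and Phc1 fell, with changes of -1.18 ± 0.20 (adjusted p = 0.0199) and -1.03 ± 0.17 (adjusted p = 0.0183). The locus itself stayed at background in both groups, as given above.

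Among 10 tested MYC, SMAD and zinc-finger regulators of CDK inhibitor genes (11 listed), 2 were called higher and 2 lower, with a median of -0.0081. Myc, which represses Cdkn1a and Cdkn2b in other cells, rose by 3.37 ± 0.35 (adjusted p = 0.00832), and its partner Max by 1.06 ± 0.15 (adjusted p = 0.0141). Klf6, an activator of Cdkn1a, fell by 0.78 ± 0.12 (adjusted p = 0.0167), and the myeloid factor Cebpa fell by 0.74 ± 0.15 (adjusted p = 0.0292), with a change of 0.0097 for Cebpa without scaling. Over all pathway lists with each gene counted once, 122 of 134 genes were tested and limma called 13 higher and 34 lower, with 22 higher in the fit with the experiment as a block. Without the block, 12.5% of all genes tested were called higher and 13.4% lower.

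The directions in these lists depend on the scaling. Without scaling between arrays, the calls were 6 higher among G1 cyclins and kinases with a median of 0.71, and 5 higher and 1 lower among E2F, DP and MuvB partners with a median of 0.57. They were 7 higher and 1 lower in the list of ubiquitin ligase subunits and Uhmk1 with a median of 0.75, and 5, all higher, among p53 genes with a median of 0.50. For FOXO targets they were 2 higher and 4 lower with a median of -0.41. For regulators of the Cdkn2a and Cdkn2b locus they were 9, all higher, with a median of 0.88, and for MYC, SMAD and zinc-finger regulators 5, all higher, with a median of 0.74. Of the genes named as lower, Tk1 (-0.53), Cdt1 (-0.48), E2f1 (-0.46), Trp53inp1 (-0.72), Bbc3 (-0.58), Cbx2 (-0.43), Phc1 (-0.29) and Klf6 (-0.033) kept a negative change there but were not called. Single arrays also decided some calls, as Ccne1 and Uhmk1 lost theirs without any 1 of the 4 arrays. E2f6, Klf6 and Cebpa did so without either array with Epo or the second without Epo, Cbx2 without the first with Epo or the second without Epo, and Max and Phc1 without the second with Epo.

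**Figure D4:**
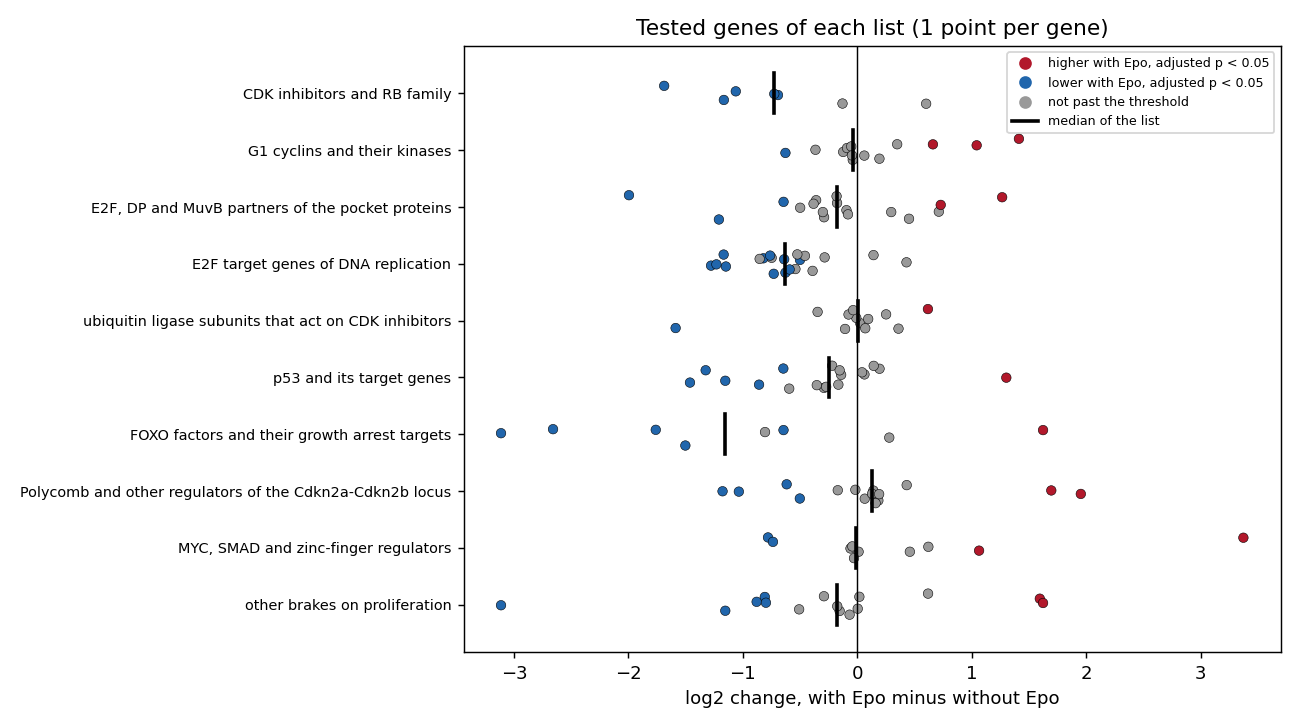
Log2 change of each tested gene, with Epo minus without Epo, by list, with one point per gene and a bar at the list's median. Red and blue points were called higher and lower by limma, and grey points were not called. The CDK inhibitor and retinoblastoma genes have a median of -0.72, E2F replication targets -0.63 and FOXO targets -1.15, and Myc is the point farthest to the right.

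Promoter sequence from RefSeq (GRCm38.p6) covered 8 of the 10 genes, all but Cdkn1c and Rb1, in 11 windows of 250 bases before to 50 bases after a transcript start. They were searched on both strands for letters that known factors bind, and the matches are shown because they are the ones found in genes that were tested or silent here. The E2F letters TTTCCCGC, TTTCGCGC, TTTGCCGC or TTTGGCGC stood in 2 of the 11 windows, those of Rbl1 and of one Cdkn2a start, and in 2.26% of all 32851 promoter windows. The E-box CACGTG, bound by MYC and MAX, stood in 1 window of Cdkn2c and in 7.15% of all windows. The FOXO letters GTAAACA and the STAT letters TTCNNNGAA had no match in the 11 windows, and were found in 3.65% and 8.3% of all windows. The p53 response element was searched only as 2 adjoining half-sites without a mismatch or spacer, found in 0.00913% of all windows. It had no match in the 11 windows, which at so rare a pattern says nothing about p53 sites of these genes. Below, capitals mark the matched letters, and a match is a description of the sequence.
Rbl1, E2F letters starting 18 bases before the transcript start, chr2:157204534-157204563, minus strand: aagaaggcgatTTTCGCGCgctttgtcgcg
Cdkn2a, E2F letters starting 99 bases before the transcript start, chr4:89294700-89294729, minus strand: ctctgggaagcTTTCCCGCgcgactgggga
Cdkn2c, E-box starting 35 bases after the transcript start, chr4:109665323-109665349, minus strand: tgctgaataatCACGTGtgaatcgagg
Of these, Cdkn2c and Rbl1 fell with Epo and Cdkn2a was not detected. The other genes called lower, Cdkn1b, Cdkn2d and Rbl2, had none of the searched letters in these windows.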

How the data were processed

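Total RNA of 32D-EpoR cells was labelled with Cy3 by an oligo-dT-primed method, per the labels' protocols, and hybridised to 4 single-colour Agilent arrays of 1 slide, 2 with Epo and 2 without. The deposited files hold the scanner's processed intensity of each spot, corrected for background by Feature Extraction 10.1.1.1 and not scaled between arrays, per the file headers, and the raw mean and local background intensity. Of tools, limma is named in the submitters' processing notes, with no version. From the processed intensity, log2 values were computed and each array was scaled by subtracting the 75th percentile of its 59305 gene spots and adding the mean percentile of the 4 arrays. Spots marked as outliers were not used, and 9 probes had no other spot. No spot was saturated, and spots of one probe were averaged. Probes that the software marked as well above background on each array of one group or of both were tested, 23735 probes of 17569 genes, and a gene was called by its brightest tested probe. In 109 of the 1142 called genes that had more than 1 tested probe, another probe changed with the opposite sign. The test was limma's moderated test (limma 3.58.1, R 4.3.3; lmFit, then eBayes, two-sided, Benjamini-Hochberg over all kept probes, threshold 0.05), with 2 residual and 4.58 total degrees of freedom. The number of arrays limits the precision. The fit was tested on simulated data.

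The 10 genes and the pathway lists were chosen with earlier results of these data known. All 10 genes are named with every probe, and from each list up to 2 genes with the largest rise and up to 2 with the largest fall past the threshold. Genes are named as in the array design. Replicate numbers were read as the 2 independent experiments on cells of different passages that the series' design text names, so they pair the samples across groups. Across probes, the deviations of same-numbered arrays from their groups correlated at 0.378. The alternatives changed the background correction, the scaling, the filter on dim probes, the choice of probe, the block and the arrays left in. Promoter windows came from a RefSeq table of GRCm38.p6, a different build from the mm9 probe positions. One marker gene and one probe sequence are not reported here.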

Additional observations from a re-analysis of the deposited data

How the results depend on the processing

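Of 134 alternative values for the 11 tested probes, 103 kept their direction and their side of the threshold, 19 lost the call, 5 gained it and 7 changed sign. With the replicate number as a block, to use the pairing of the experiments, 1 of the 10 genes was called higher and 2 of their probes, and among all kept probes limma called 4711 higher and 4876 lower, against 3084 and 3059 without the block. The block gave 22 pathway genes higher against 13, and 0 probe pairs against 147, with 1929 pairs at an unadjusted p under 0.05, and it changed no call of the 10 genes other than those of Cdkn1a and Rbl1 given above. With the normexp background, 1 of the 10 genes and 2 of their probes were called higher, 4850 of all probes lower and 524 probe pairs, and the fitted difference of changes between the Cdkn1b probes, of which 1 is at background with Epo, turned negative, at -0.058. With no scaling between arrays, 1 of the 10 genes was called higher and 1 lower, as were 3 of their probes higher and 2 lower, 45 pathway genes higher and 6 lower, and 11329 of all probes higher and 477 lower. There the changes of Rb1 (0.62), Rbl2 (0.021) and the Rbl1 probes (0.054 and 0.34) were positive. With the percentile taken over detected probes, the split was 2503 higher to 4331 lower, and the NM_001111099 probe of Cdkn1a turned to -0.039. With no filter on dim probes, limma called 0 of 55672 probes, 0 of them higher and 0 lower, with a smallest adjusted p of 0.135 and 9494 at an unadjusted p under 0.05, 8 of them probes of the 10 genes. The cause of these shifts was not tested. Leaving out each array in turn gave 2 to 4 of the 10 genes lower, 0 to 1 of their probes higher and 3 to 5 lower, 9 to 11 pathway genes higher and 14 to 23 lower, 1250 to 2678 of all probes higher and 1205 to 2314 lower, and 0 to 0 probe pairs, with 1003 to 1531 pairs at an unadjusted p under 0.05. The change of the NM_001111099 probe of Cdkn1a then ran from -0.089, without the second array with Epo, to 0.26, and was -0.038 without the first array without Epo. Where 1 array was left in a group, it was assumed to vary like the other group. Over the 122 tested pathway genes, 1210 of 1584 alternative values kept their direction and call, 149 lost it, 88 gained it and 137 changed sign. Signal over background limits Cdkn1c, Cdkn2a and Cdkn2b, for which no difference could be measured.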

Other observations

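Other brakes on proliferation, which act beside the CDK inhibitors, were also called both ways, where 12.5% of all genes tested were called higher and 13.4% lower. Of 15 such genes, all tested, limma called 2 higher and 5 lower with Epo, with a median change of -0.17, and without scaling 5 higher and 1 lower, with a median of 0.57. Btg3, an antiproliferative gene of the BTG/TOB family, read 13.96 and 13.58 with Epo, against 12.34 and 12.01 without Epo, and rose by 1.60 ± 0.20 (limma adjusted p = 0.0113). The other gene called higher was Gadd45b. Its relative Gadd45a went the opposite way, with means of 10.39 ± 0.42 with Epo and 11.55 ± 0.35 without Epo (SD, n = 2 each), and fell by 1.15 ± 0.28 (limma adjusted p = 0.0458). The call of Gadd45a was lost without scaling between arrays, at -0.41, and without the second array with Epo or the first array without Epo. Ccng2 read 4.82 and 4.44 with Epo, against 7.69 and 7.79 without Epo, and was well above background on all 4 arrays. The other genes called lower were Tob1, Wee1 and Pkmyt1, of which Wee1 and Pkmyt1 are the kinases that place inhibitory phosphate on CDKs.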
